A study of Mus musculus with 5 samples.

Results

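The Polycomb group genes described here encode subunits of the histone H3 lysine 27 methyltransferase PRC2, of the histone H2A ubiquitin ligase PRC1 in its canonical and variant forms, and of the H2A deubiquitinase PR-DUB. The 34 members were taken by symbol from a fixed list, and all 34 matched a single row among the 27179 gene identifiers of the count table. Their transcripts were measured in Langerhans cells, the phagocytes that reside among the keratinocytes of the epidermis, which the series title describes as derived from the foetus. Each library was made from 5000 purified cells, and the C57BL/6 mice were 1 week old. The WT group (2 libraries) was wild type, and the Suz12 cKO group (3 libraries) carried a conditional knockout of Suz12. The Cre driver, the floxed exons, the sex of the mice and any pooling of mice are not stated in the labels. The design text calls the libraries biological replicates without naming animals, so p-values reflect only how far these libraries differ, which may be technical.

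Polycomb complexes keep developmental genes silent through chromatin. In PRC2, EZH1 or EZH2 methylates histone H3 only when bound to SUZ12 and EED, and accessory subunits steer the complex to its sites. In PRC1, RING1 or RNF2 ubiquitinates histone H2A with 1 of 6 PCGF partners. CBX and PHC proteins mark canonical complexes, which bind the PRC2 mark, and RYBP or YAF2 marks variant ones, which do not need it. BAP1 with an ASXL protein removes the ubiquitin. Most of these subunits exist as paralogs that replace one another, so the level of each paralog was examined before the change with genotype.

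The libraries held 12090062 to 25725900 counts, and 9103 to 10220 genes had a count in each. The 10 Langerhans cell markers summed to 99993 to 121860 CPM (counts scaled per library, with TMM factors, to a common total of 1000000). The source label names alveolar macrophages. The 7 markers of that cell type summed to 213 to 688 CPM in WT and 162 to 365 CPM in cKO, with Siglecf, Car4, Chil3 and Fabp1 at 0 in all libraries and 2 or 3 of the others detected in each. Over 11 keratinocyte markers the sum was 329 to 762 CPM in WT and 806 to 1139 CPM in cKO, and over 10 proliferation genes it was 683 to 706 CPM in WT and 273 to 604 CPM in cKO. The 5 neutrophil markers summed to under 0.06 CPM in WT and to 6.27 to 13.1 CPM in cKO, with S100a9 and Retnlg at 0. Only 1 of the 5 was detected in each WT library, and 1, 2 and 1 in cKO replicates 1 to 3. The keratinocyte, proliferation and neutrophil sums did not overlap between the groups, whereas the Langerhans cell and alveolar macrophage sums did. Sums for melanocyte, T cell, dermal macrophage, and fibroblast and endothelium markers overlapped too. The part of these lists in the results below was not tested. In RNA from a pool of cells, fewer expressing cells and less RNA per cell cannot be told apart.

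Between 19 and 25 of the 34 members had a count in each library, with the fewest in cKO replicate 1. Only 12 members had a count in all 5 libraries, which were Eed, Ezh2, Ezh1, Rbbp4, Rbbp7, Rnf2, Bmi1, Phc2, Rybp, Yaf2, Kdm2b and Bap1. Pcgf6, a subunit of variant PRC1, and Cbx2, a chromodomain subunit of canonical PRC1, had no count in any library. In the deepest and the shallowest library a count of 0 allows up to 0.106 and 0.258 CPM (3 counts), a limit that covers counting error only, because amplified reads are not independent molecules. Pcgf2, Cbx7 and Phc1 stayed under 1 CPM in all 5 libraries as well. Of the 34 members, 25 had enough counts to be tested between genotypes.

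Levels were compared between genes as CPM per kilobase of exon, with the exon length of the deposited table. Rbbp4 and Rbbp7, histone chaperones that PRC2 shares with other chromatin complexes, were the most abundant members at 44.5 ± 20.1 and 44.5 ± 19.1 CPM per kb (SD, n = 5 libraries). Both lay at the 80.5th percentile of the tested genes. Eed, the subunit that reads the H3 lysine 27 mark, followed at 33.2 ± 25.1 CPM per kb, and Pcgf5 at 22.2 ± 26.2. The place of Pcgf5 rested on the length used and on 1 library, since its mean was 5.21 CPM per kb with the longest GENCODE transcript and 10.9 without cKO replicate 1. Rnf2, Ezh2, Yaf2, Phc2 and Bmi1 lay between 10.5 and 7.52 CPM per kb. Suz12 was the 26th of 34 in this order, with a mean of 0.346 CPM per kb. That mean includes the cKO libraries, in which the gene was deleted. The Suz12 mean was 0.795 CPM per kb in WT and 0.0458 in cKO, so this rank does not describe WT cells. Neighbours in the order were not separated: each gap between means was at most 0.45 times the larger SD of the pair, and the ranges overlapped for every pair of neighbours.

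**Figure D1:**
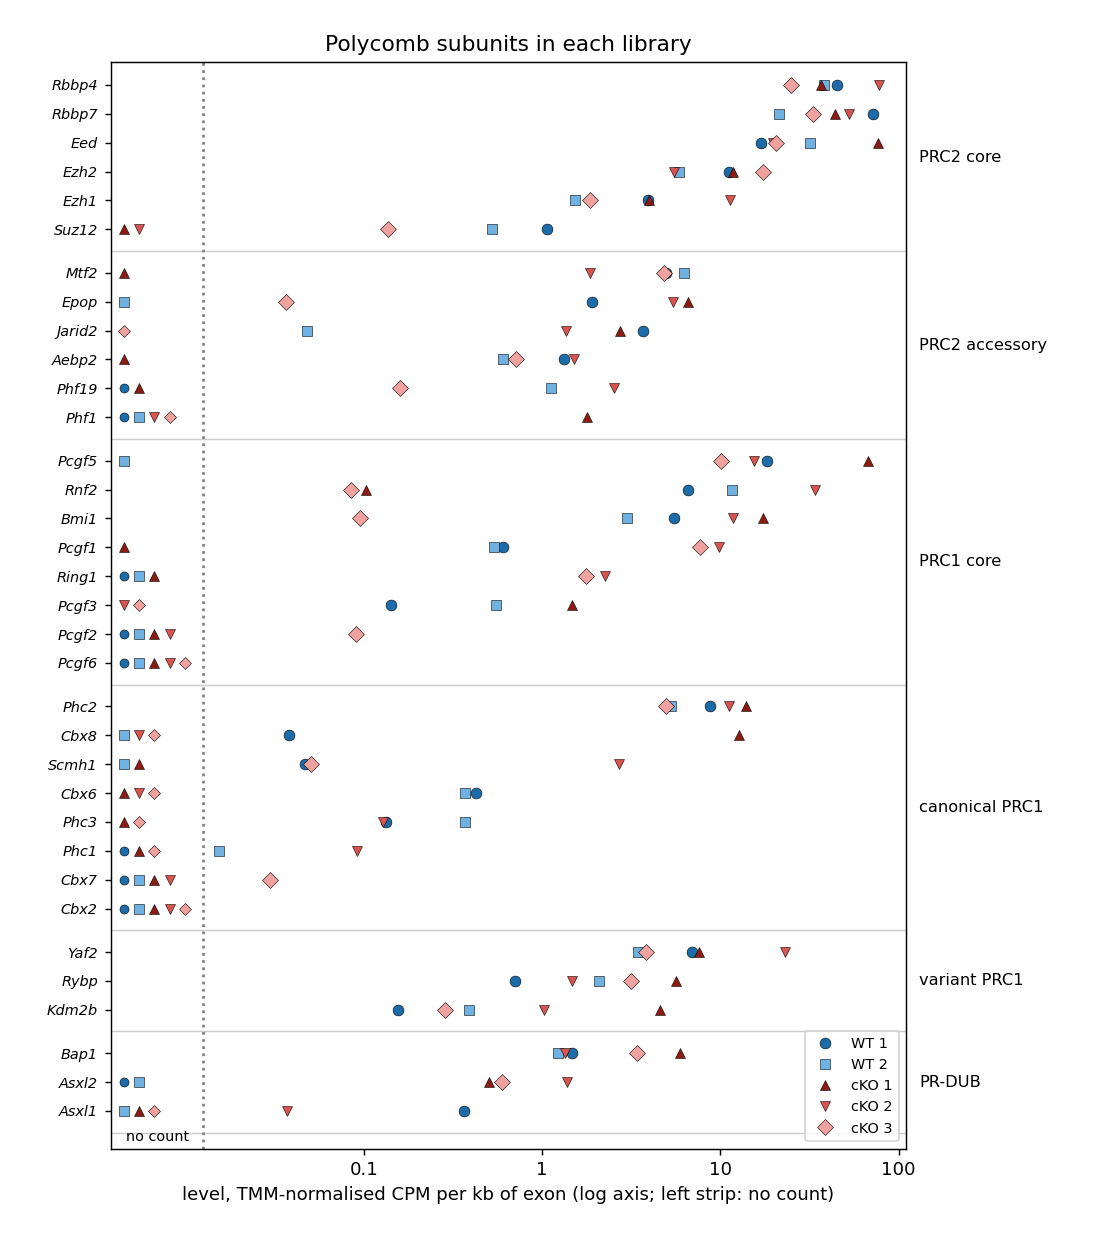
Level of each of the 34 Polycomb members in each library, as TMM-normalised CPM per kb of exon on a log axis, grouped by complex, with libraries without a count in the strip at the left. The PRC2 core genes other than Suz12 have counts in all 5 libraries. In the canonical PRC1 group, genes other than Phc2 lie in the strip in at least 2 libraries.

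Related members could be told apart by reads of 75 bases. No window of 75 bases in the longest transcript of a member occurred in a transcript of another member, on either strand of the GENCODE vM21 transcripts. Over the 32 pairs within the 9 groups that are related in sequence, the longest identical run of coding sequence was 9 to 23 bases. The runs are shown for 4 pairs of paralogs whose balance is described below, because they set how far reads of one gene could pass for the other. Coding strands are written 5′ to 3′, the identical run is in capitals, and 12 bases on each side are in lower case.
Ezh1: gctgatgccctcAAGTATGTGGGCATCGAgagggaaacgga
Ezh2: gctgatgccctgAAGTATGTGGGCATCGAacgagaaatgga
Rbbp4: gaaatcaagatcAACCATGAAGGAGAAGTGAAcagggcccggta
Rbbp7: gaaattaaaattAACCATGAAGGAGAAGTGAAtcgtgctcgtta
Rnf2: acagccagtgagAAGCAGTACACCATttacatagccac
Ring1: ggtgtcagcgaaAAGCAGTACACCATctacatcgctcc
Rybp: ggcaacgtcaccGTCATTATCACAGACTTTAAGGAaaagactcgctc
Yaf2: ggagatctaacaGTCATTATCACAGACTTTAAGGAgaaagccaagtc

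In mm10 the runs lie in coding exons. For Ezh1 and Ezh2 the run of 17 bases is at chr11:101192961-101192977 (minus strand) and chr6:47530563-47530579 (minus strand). For Rbbp4 and Rbbp7 the run of 20 bases is at chr4:129322797-129322816 (minus strand) and chrX:162769817-162769836 (plus strand). For Rnf2 and Ring1 the run of 14 bases is at chr1:151471669-151471682 and chr17:34021714-34021727 (both minus strand). For Rybp and Yaf2 the run of 23 bases is at chr6:100232336-100232358 and chr15:93285533-93285555 (both minus strand). Other genes were closer than the paralogs. In 15 members some windows recurred in a transcript of a gene outside the list, with the largest shares in Phf1 (25.7%, the opposite-strand gene Cuta), Kdm2b (22.4%, the opposite-strand gene Rnf34 and a processed pseudogene), Pcgf1 (20.4%, a processed pseudogene) and Bmi1 (11.2%, a transcribed pseudogene). Exons of opposite-strand genes, among them Sync, also cover 18.0% of the exon bases of Rbbp4. Whether counting used strand is not stated in the labels, and the values of these genes are uncertain to that extent.

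Ezh2, the more active methyltransferase of the pair, was the main EZH transcript in 4 of 5 libraries. Its level was 11.2 and 5.88 CPM per kb in WT and 11.8, 5.50 and 17.4 CPM per kb in cKO replicates 1 to 3. Ezh1, which is known from non-dividing cells, lay at 3.95 and 1.53 CPM per kb in WT and at 3.95, 11.3 and 1.86 CPM per kb in cKO replicates 1 to 3. Ezh2 therefore made up 73.9% and 79.3% of the EZH level in WT and 74.9%, 32.7% and 90.3% in cKO. The order was reversed in cKO replicate 2 alone. The mean log2 ratio of Ezh2 to Ezh1 was 1.72 ± 0.31 in WT (SD, n = 2) and 1.25 ± 2.15 in cKO (SD, n = 3), a difference smaller than the spread in cKO. Eed had its highest level in cKO replicate 1, at 16.8 and 31.9 CPM per kb in WT and 76.9, 19.6 and 20.5 CPM per kb in cKO, and the groups overlapped.

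The RBBP pair was balanced. Rbbp7 held 61.2% and 35.7% of the pair in WT and 54.7%, 40.3% and 57.1% in cKO, above Rbbp4 in 3 of 5 libraries. The levels were 45.2 and 38.1 CPM per kb in WT and 36.4, 78.0 and 24.96 in cKO for Rbbp4, and the groups overlapped. For Rbbp7 they were 71.4 and 21.2 CPM per kb in WT and 43.9, 52.7 and 33.2 in cKO, with both extremes in WT.

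Among the Polycomb-like proteins, which bind CpG islands and help to recruit PRC2, Mtf2 was the main transcript in 3 of 5 libraries. It made up 100% and 84.9% of the group in WT and 0%, 42.5% and 96.8% in cKO replicates 1 to 3. In cKO replicate 1 the only Polycomb-like counts were 69 of Phf1, whose exons overlap Cuta. In cKO replicate 2 Phf19 had 57.5% of the group, with 266 counts against 275 for Mtf2. The other PRC2 cofactors alternated in the same way. Jarid2, a DNA-binding cofactor, lay at 3.70 and 0.0479 CPM per kb in WT and at 2.73, 1.37 and 0 in cKO. Aebp2, a zinc finger cofactor, lay at 1.33 and 0.606 CPM per kb in WT and at 0, 1.504 and 0.714 in cKO. Epop, which binds PRC2 in place of those cofactors, lay at 1.91 and 0 CPM per kb in WT and at 6.55, 5.44 and 0.0368 in cKO. No library lacked all 3 of them.

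Rnf2 was the only RING transcript with a count in both WT libraries. It lay at 6.61 and 11.6 CPM per kb in WT and at 0.103, 34.0 and 0.0851 CPM per kb in cKO replicates 1 to 3, so the highest and the 2 lowest libraries were all cKO. The low libraries held 5 and 3 counts. Ring1 was at 0 in WT and in cKO replicate 1, against 2.26 CPM per kb in cKO replicate 2 and 1.77 in cKO replicate 3. In cKO replicate 3 it was 95.4% of the RING level. In cKO replicate 1 neither gene exceeded 0.103 CPM per kb, although every PRC1 complex needs one of them.

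Of the 6 PCGF genes, which define the kind of PRC1, Pcgf5, Bmi1 and Pcgf1 accounted for most of the level. Pcgf5, a variant PRC1 subunit, lay at 18.3 and 0 CPM per kb in WT and at 67.4, 15.4 and 10.01 in cKO. Bmi1, a canonical PRC1 subunit, lay at 5.48 and 3.00 CPM per kb in WT and at 17.3, 11.7 and 0.0956 in cKO. Pcgf1, the partner of KDM2B, lay at 0.606 and 0.540 CPM per kb in WT and at 0, 9.88 and 7.66 in cKO. With the deposited exon lengths Pcgf5 was the highest PCGF gene in 4 of 5 libraries. That order depended on the length: the table gives Pcgf5 1509 bases and the longest GENCODE transcript has 6443, and with the latter Bmi1 was highest in 4 libraries, Pcgf1 in 1 and Pcgf5 in 0. Pcgf3 stayed at or below 1.48 CPM per kb, and Pcgf2, the close paralog of Bmi1, had 3 counts in all.

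Among the 8 genes grouped here as canonical PRC1 (the CBX and PHC genes and Scmh1), only Phc2 had a count in every library. This polyhomeotic gene, whose product polymerises PRC1, held 93.2% to 100% of the PHC level, at 8.73 and 5.28 CPM per kb in WT and at 13.9, 11.2 and 4.97 in cKO. Phc1, its paralog, had 0 and 1 counts in WT and 0, 10 and 0 in cKO. The 4 CBX genes of the list were scarce. Cbx6 had 44 and 34 counts in WT and none in cKO, and Cbx8 had 1 count in WT and 282 counts in cKO replicate 1 alone. Cbx7 had 1 count in all. In cKO replicates 2 and 3 the 4 CBX genes together had 0 counts and 1 count. Scmh1, a further canonical subunit, had 3 and 0 counts in WT and 0, 260 and 2 counts in cKO, so its level rested on cKO replicate 2.

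In variant PRC1, Yaf2 exceeded its paralog Rybp in all 5 libraries, by 1.215 to 15.6 times per kb. Yaf2 lay at 6.94 and 3.43 CPM per kb in WT and at 7.59, 22.9 and 3.81 in cKO. Rybp lay at 0.701 and 2.07 CPM per kb in WT and at 5.66, 1.47 and 3.14 in cKO. Kdm2b, which anchors variant PRC1 to unmethylated CpG islands, lay at 0.156 and 0.390 CPM per kb in WT and at 4.60, 1.03 and 0.284 in cKO, with cKO replicate 3 inside the WT range. Bap1, the catalytic subunit of PR-DUB, lay at 1.48 and 1.23 CPM per kb in WT and at 5.92, 1.35 and 3.403 in cKO, with cKO replicate 2 inside the WT range. Of its partners, Asxl1 had 46 and 0 counts in WT and 0, 7 and 0 in cKO, and Asxl2 had 0 counts in WT and 72, 346 and 62 in cKO.

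**Figure D2:**
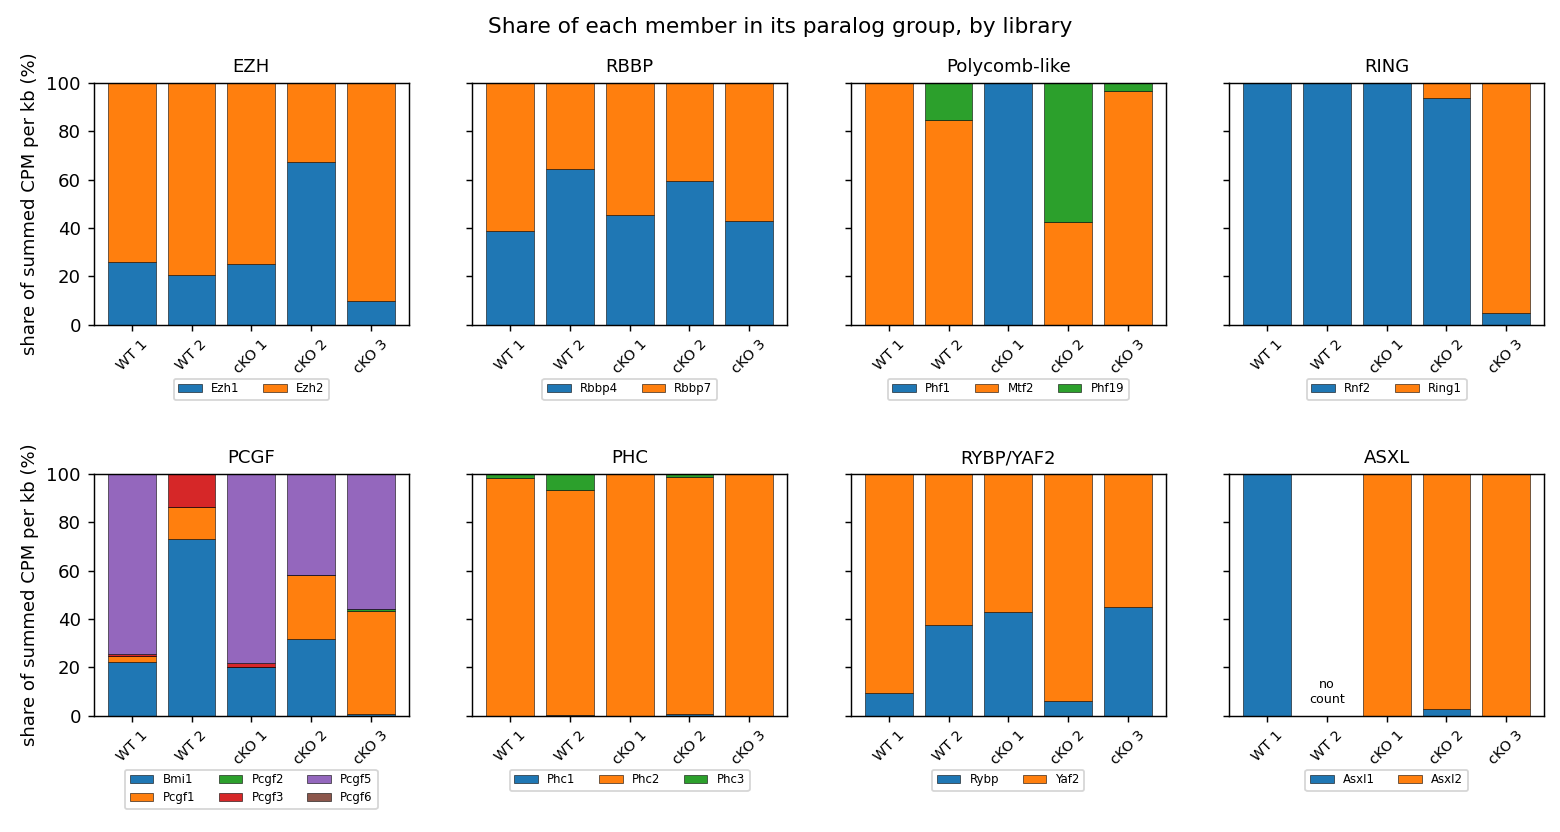
Share of each member in the summed CPM per kb of its paralog group in each library, with a bar per library that adds to 100% and an empty bar where the group had no count. Phc2 and Yaf2 hold the larger share in all 5 libraries, whereas the main Polycomb-like, RING and ASXL gene differs between libraries.

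The comparison of genotypes asks which subunit transcripts changed when Suz12 was deleted. Suz12 itself (chr11:79993106-80034123), the scaffold of PRC2, had 88 and 39 counts in WT and 0, 0 and 7 in cKO, or 4.66 and 2.30 CPM against 0, 0 and 0.601 CPM. The cKO libraries lay below both WT libraries, and the log2 fold change was -4.11 ± 2.87 (SE; edgeR adjusted p = 0.999). Without cKO replicate 3, which held the 7 counts, it was -9.12. Since a conditional allele can leave part of the gene transcribed, and the counts are per gene, the exons behind the 7 counts are not known.

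No member passed the test. Of 9988 genes tested with the quasi-likelihood test of edgeR, 0 had an adjusted p under 0.05 (0%), and 0 of the 25 tested members did. At an unadjusted p of 0.05, 1 member lay higher (Asxl2) and 1 lower (Cbx6), where 2.1% and 2.05% of all tested genes did. DESeq2 called 1 member, Asxl2, and 191 genes in all (1.91%). Members with a positive log2 fold change numbered 18 of 25, against 52.5% of all tested genes, and the median was 0.67 against 0.06. A member could enter the test through the group in which it was high, so these counts describe the tested members and not the list of 34. They also depended on the setting: 14 of 25 were positive in a fit with a term for title style (samples are titled either LC or Langerhans-cell), and 13 of 22 without cKO replicate 2, with a median of 0.28.

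By complex, the 6 tested PRC2 core genes had 4 positive and 2 negative log2 fold changes (median 0.30), and the 5 tested PRC2 accessory genes 2 and 3 (median -0.39). The 6 tested PRC1 core genes were all positive (median 1.47), as were the 3 variant PRC1 genes (median 1.30) and the 2 tested PR-DUB genes. Of the 3 tested canonical PRC1 genes, 1 was positive and 2 were negative. Over all tested genes, 52.5% were positive. Ring1 and Asxl2 had no count in WT and entered the test through cKO, while Asxl1 was not tested. Pcgf1, with 10 and 8 counts in WT, also passed the filter only through cKO replicates 2 and 3. The positive signs of these genes are therefore no separate result. As a difference of mean log2(CPM + 1), Rnf2 (-2.31), Pcgf3 (-0.21) and Bmi1 (-0.02) were negative. Ring1 (1.56), Pcgf1 (1.49) and Pcgf5 (2.68) were positive on that scale. Among the PRC1 core genes, Pcgf5 kept its sign in every fit that gave one. Ring1 did too, but with no count in WT its sign was fixed in advance. Rnf2 kept it in 11 of 16 fits, Bmi1 in 14 of 16, Pcgf3 in 10 of 14 and Pcgf1 in 13 of 14. The log2 fold change of Rnf2 was 0.32 ± 2.22 (SE), without cKO replicate 2 it was -6.56, and without WT replicate 1 it was -0.02. That of Bmi1 was 1.19 ± 1.70 (SE), and with the title style as a term it was -1.48. None of these groups had a member with an edgeR adjusted p under 0.05.

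**Figure D3:**
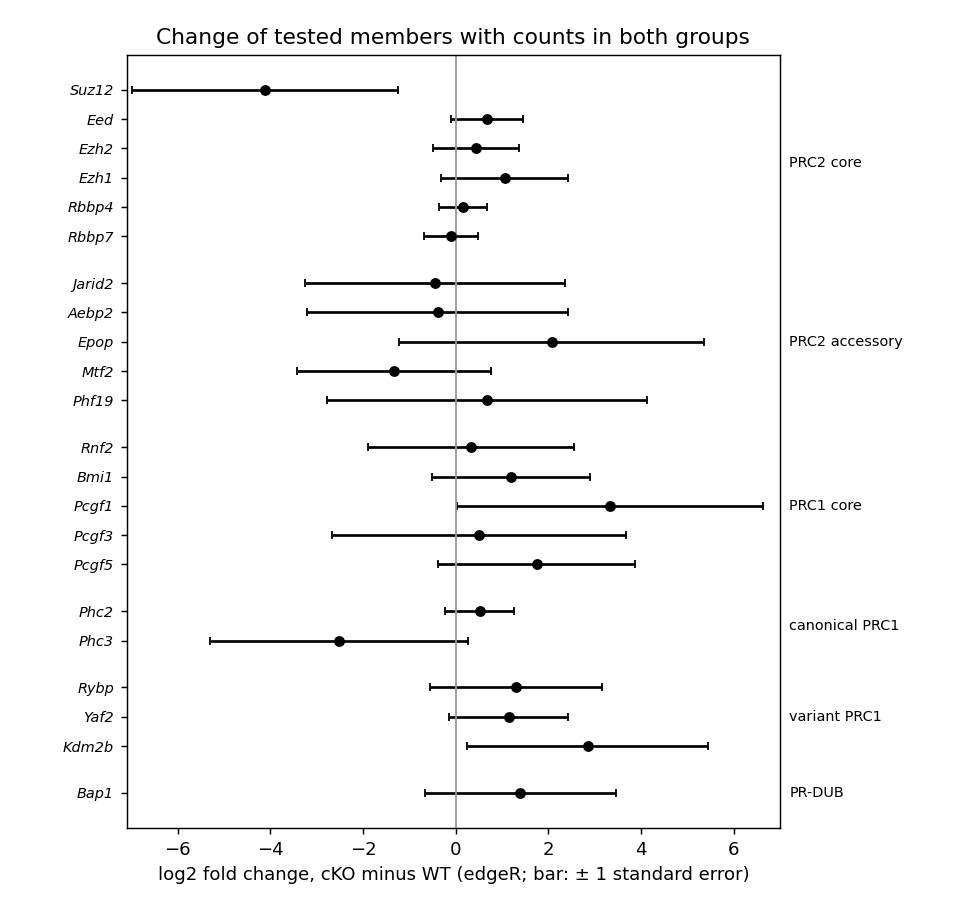
Log2 fold change of cKO minus WT for the tested members with counts in both groups, from edgeR, with bars of 1 standard error on each side, grouped by complex. The bars of Rbbp4, Rbbp7, Phc2 and Eed are the shortest, and no member passed the test over all genes.

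The abundant PRC2 core genes and Phc2 had the smallest standard errors. Rbbp4 had a log2 fold change of 0.16 ± 0.52 (SE), Rbbp7 one of -0.10 ± 0.58 and Phc2 one of 0.51 ± 0.75 (edgeR adjusted p = 0.999 for each). Eed had one of 0.68 ± 0.78, Ezh2 one of 0.44 ± 0.94 and Ezh1 one of 1.06 ± 1.37 (SE; edgeR adjusted p = 0.999 for each). Rbbp4 and Rbbp7 changed sign under other settings. Without cKO replicate 2 Rbbp4 was at -0.44, and Rbbp7 was at 1.03 without WT replicate 1 and at 0.07 without cKO replicate 3. For Yaf2 the log2 fold change was 1.14 ± 1.29, for Rybp 1.30 ± 1.86, for Kdm2b 2.85 ± 2.61 and for Bap1 1.39 ± 2.06 (SE; edgeR adjusted p = 0.999 for each). Yaf2 was at 0.13 without cKO replicate 2, and without cKO replicate 1 Kdm2b was at 1.29, Rybp at 0.74 and Bap1 at 0.82. Without a WT library, Yaf2 was at 1.74 (replicate 1 left out) and 0.75 (replicate 2), Rybp at 0.73 and 2.27, and Phc2 at 0.93 and 0.20. Yaf2, Rybp, Kdm2b and Bap1 kept a positive sign in all 16 fits, as did Ezh1, Phc2, Epop and Pcgf5. Asxl2 did too, with a sign fixed by its lack of counts in WT, and Mtf2 kept a negative one. The fits reuse the same 5 libraries and are not independent of one another.

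The WT and cKO libraries did not overlap for 5 of the 25 tested members. Asxl2 was the 1 member with all cKO libraries above both WT libraries, a pattern seen in 8.87% of all tested genes. The gene (chr12:3426857-3510811 in mm10) had 0 and 0 CPM in WT and 4.51, 12.2 and 5.32 CPM in cKO. With the floor of 3 counts set over the WT group it was at least 103-fold higher. That floor covers counting error only, not the spread between libraries: Pcgf5 had 27.7 CPM in WT replicate 1 and no count in WT replicate 2. Asxl2 also passed the filter through cKO alone. Its adjusted p was 0.968 with edgeR and 0.0472 with DESeq2. Below both WT libraries lay 4 members, Suz12, Mtf2, Cbx6 and Phc3, where 10.2% of all tested genes did. Cbx6 (chr15:79823898-79834333), a chromodomain subunit, lay at 2.33 and 2.00 CPM in WT and at 0 in every cKO library. With 3 counts as the floor over the cKO group it was at least 40.5-fold lower (edgeR adjusted p = 0.968). This floor too covers counting error only, and Cbx6 passed the filter through WT alone. Exons of the same-strand gene Npcd cover 5.3% of its exon bases. By its mean over all libraries, the cKO zeros included, Cbx6 lay at the 0.8th percentile of the tested genes per kb. That mean was 0.159 CPM per kb, and the WT mean was 0.398.

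For Mtf2 and Phc3 the separation was within counting error. Mtf2 lay at 25.9 and 32.9 CPM in WT and at 0, 9.74 and 25.2 CPM in cKO. The 95% exact Poisson interval of cKO replicate 3 (22.4 to 28.3 CPM) overlapped that of WT replicate 1 (23.7 to 28.3 CPM). Its log2 fold change was -1.34 ± 2.09 (SE; edgeR adjusted p = 0.999). It was -0.74 without cKO replicate 1, -2.55 without cKO replicate 3 and -3.70 with limma-voom. Phc3, a polyhomeotic gene, lay at 1.48 and 4.07 CPM in WT and at 0, 1.42 and 0 CPM in cKO. Here the interval of cKO replicate 2 (1.01 to 1.93 CPM) overlapped that of WT replicate 1 (0.985 to 2.14 CPM). Scaling also decided both: Mtf2 was not separated with upper-quartile factors, nor Phc3 with library totals, which left 3 members below in each case. When a library was left out, which makes separation easier, 3 to 7 members lay above and 4 to 6 below. The share of all tested genes was not computed with a library left out, so these counts give no result about the members.

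**Figure D4:**
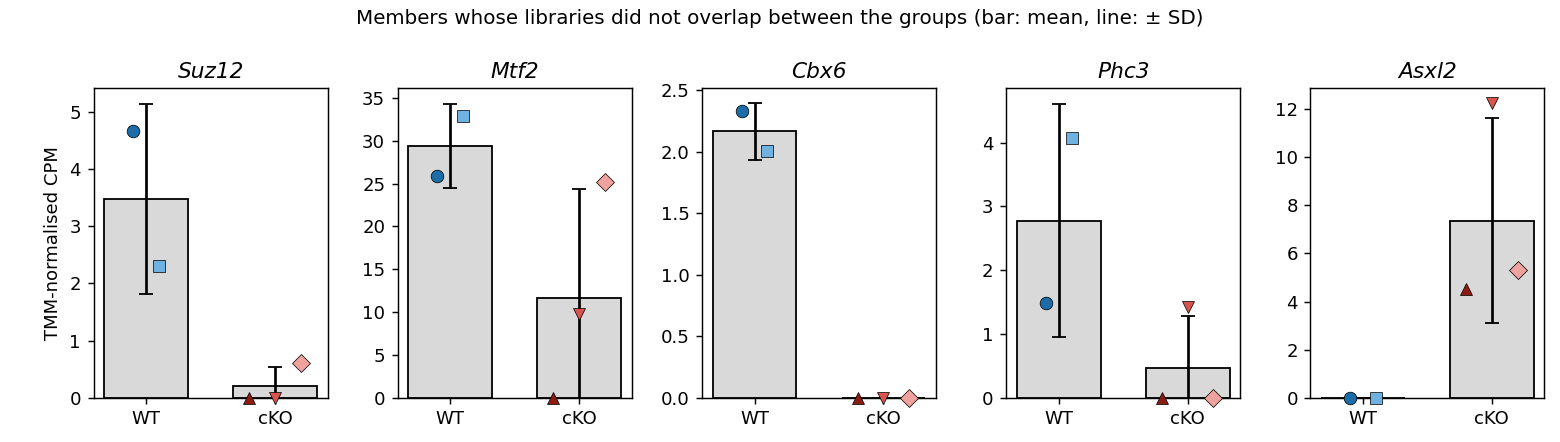
TMM-normalised CPM of the 5 members whose libraries did not overlap between the groups, with a point per library, bars for the mean and lines for the SD (cut at 0; n = 2 WT and 3 cKO libraries). Suz12, Cbx6 and Asxl2 have a wide gap between the groups, while Mtf2 in cKO replicate 3 and Phc3 in cKO replicate 2 lie just under the lower WT library.

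Further members had counts in 1 group only or nearly so, but overlapped at 0. Ring1 was at least 36.8-fold higher in cKO over the group (edgeR adjusted p = 0.968), with cKO replicate 1 at 0 as in WT. Phf1 was at least 14.8-fold higher, from cKO replicate 1 alone. The cKO to WT ratio of Cbx8 was 181, with a 95% counting interval of 32.2 to 7173, and that of Scmh1 was 56.0 with an interval of 19.0 to 274. Each of these ratios rested on 1 cKO library. The intervals, and the floors behind the fold limits of Ring1 and Phf1, cover counting error and not the spread between libraries.

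Several tested members were present in one library and nearly absent from the next, as were many other genes. A level of at least 10 CPM somewhere and of less than 1 CPM elsewhere was found for 8 of 25 members (32%) and 36.9% of all tested genes. No count in at least 1 library was found for 13 of 25 (52%) and 38.9%. Within the samples titled LC (WT replicate 1, cKO replicates 1 and 2) and those titled Langerhans-cell (WT replicate 2, cKO replicate 3), the difference on the log2(CPM + 1) scale had the same sign for 15 of 25 members and the opposite sign for 10. Those with opposite signs were Eed, Ezh2, Rbbp4, Rbbp7, Aebp2, Phf19, Bmi1, Pcgf3, Phc2 and Kdm2b. Ring1, Asxl2 and Cbx6, which had no count in WT or none in cKO, could not take opposite signs. The share of same signs over all tested genes was not computed, so the count gives no result about the members. What the title style stands for is not stated in the labels.

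Genes whose products bind Polycomb complexes were taken from a second list of 30, of which 22 were tested. Of these 14 had positive and 8 negative log2 fold changes, with a median of 0.63, and 0 passed the test (edgeR; none had an unadjusted p under 0.05, and DESeq2 called 0). The median was 0.24 without cKO replicate 2 and -0.0599 with limma-voom, where its direction turned. Hdac1, a histone deacetylase, had the smallest p. It lay at 136 and 140 CPM in WT and at 22.3, 81.7 and 56.9 CPM in cKO. The log2 fold change was -1.37 ± 0.59 (SE; edgeR adjusted p = 0.968). All 3 cKO libraries were below both WT libraries for Hdac1, and also for Hcfc1 of the same list. That was 2 of the 22 tested associated genes (9.09%), where 10.2% of all tested genes lay below. Mga, the scaffold of the variant PRC1 that holds PCGF6, was at 0 in WT and in cKO replicate 3, against 26.2 CPM in cKO replicate 1 and 11.2 CPM in cKO replicate 2. Usp7, a deubiquitinase of variant PRC1, lay at 7.04 and 4.25 CPM in WT and at 57.6, 1.38 and 33.2 CPM in cKO. Ogt, the O-GlcNAc transferase that binds PR-DUB, lay at 14.2 and 20.6 CPM in WT and at 17.1, 31.4 and 64.4 CPM in cKO.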

How the data were processed

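Polyadenylated RNA was amplified with a SMART-Seq kit for very small inputs and sequenced as read pairs of 75 bases, per the labels' protocols. The authors deposited raw counts per gene with an exon length; the submitters' processing notes name featureCounts and mm10. For the aligner, versions, strand use and multiply matching reads, nothing is given in the sources used here. The 5 per-sample files were identical to the series table. Identifiers were matched to symbols through RefSeq on GRCm38.p6 (mm10 coordinates).

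Libraries were grouped by title. The test was edgeR 4.0.16 (R 4.3.3): filterByExpr with a minimum count of 10, TMM factors, robust quasi-likelihood F test with legacy=TRUE, Benjamini-Hochberg adjustment over 9988 genes, threshold 0.05. Standard errors are the log2 fold change over the root of F. DESeq2 1.42.0, limma 3.58.1 (voom with quality weights) and the settings in the closing part were alternatives. Levels per kb divide CPM by exon length. Windows and coding runs come from GENCODE vM21. Fits were tested on simulated counts. Figures used matplotlib 3.10.9.

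Values in every library were printed for Suz12, Eed, Ezh1 and Ezh2, the highest and lowest member of each paralog group, Kdm2b, Scmh1, Bap1, members whose groups did not overlap or whose unadjusted p was under 0.05, and the 4 associated genes with the smallest p; other members named were chosen after their values were seen. Members and lists were chosen with earlier results of these data known.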

Additional observations from a re-analysis of the deposited data

How the results depend on the processing

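The number of genes called was 0 in all settings other than DESeq2, with 191 genes (137 higher, 54 lower; 969 had no adjusted p) and 1 member, and the replicate block, with 1 gene. Same-numbered libraries did not deviate together (r = -0.03 and -0.02 across genes), so the numbers are not taken as pairs, and the block called 0 members. Leaving out a library gave 0 genes and 0 members. It moved the members above every WT library kept from 1 to between 3 and 7, a count without a share over all tested genes beside it. Of the scalings, upper-quartile factors and library totals each gave 3 members below in place of 4, and the 1 above was kept.

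The median log2 fold change of the tested members was 1.12 without a filter (32 members) and ranged from 0.28 to 1.28 over left-out libraries. That of the associated genes was -0.0599 with limma-voom, 0.24 with the replicate block, 0.34 with the title style as a term and 0.24 to 0.76 over left-out libraries. With limma-voom, log2 fold changes took the other sign for Rbbp4 (-0.12), Rbbp7 (0.0740), Rnf2 (-4.70) and Bmi1 (-0.76). The replicate block turned Rbbp7 (0.31) and Rnf2 (-2.09), and the title style turned Rbbp4 (-0.0768), Rnf2 (-2.46) and Bmi1 (-1.48). With the replicate block Suz12 was at -8.86 and Mtf2 at -5.54. Over left-out libraries Rbbp4 ranged from -0.44 to 0.48, Rbbp7 from -0.71 to 1.03 and Rnf2 from -6.56 to 0.94. The cause was not tested. A minimum count of 50 left out Suz12, Pcgf3, Cbx6 and Phc3, so these have no value there, and DESeq2 gave no adjusted p for Suz12, Pcgf3, Cbx6, Phc3, Ring1 and Rnf2. Without a WT library, the lone WT sample is assumed to vary like the cKO group.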
